A study of Homo sapiens with 6 samples.

Results

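The 10 genes described here belong to the activity-induced, or immediate early, response: the zinc finger transcription factors EGR1 to EGR4, the orphan nuclear receptors NR4A1 to NR4A3, the synaptic protein ARC, and the regulators IER2 and BTG2. They were chosen by name from the 57820 genes of the deposited count table, and all 10 have a row there. At least 1 count was found in some library for 9 of them, and EGR4 had none. Bulk RNA sequencing was done on human motor neurons made from the wild-type embryonic stem cell line H9. For 3 libraries the cells had been exposed to simulated microgravity (SMG) on a 2D clinostat, which keeps turning the dish and so averages out the pull of gravity, and for 3 they were kept at normal gravity (NG). Both groups had been differentiated from motor neuron progenitors with 0.01 µM retinoic acid and 0.1 µM SAG, an agonist of Hedgehog signalling. The labels do not give the time on the clinostat.

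Immediate early genes are transcribed within minutes of a stimulus, with no need for new protein, because the factors that switch them on are already in the nucleus. Calcium entry through channels and receptors, and growth factor signalling through ERK, act on serum response factor (SRF) with its ternary complex partners and on CREB at the promoters of these genes. The products are transcription factors that switch on later genes, or proteins that act at the synapse or on mRNA, and most of the mRNAs are short-lived. In neurons their level is widely used as a record of recent activity, but serum, stress and handling of the cells induce many of them too.

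Promoter sequences of members were searched for letter matches to motifs of SRF, CREB and EGR proteins. For 7 members a RefSeq window of the 250 bases before an annotated start was read. The windows are from build GRCh38.p14, another build than the hg19 of the counts. EGR3 and ARC were left out of this scan, and NR4A2 had no window. The windows of EGR1, EGR2, NR4A3 and BTG2 are printed 5′ to 3′ on the gene's own strand. EGR1 and BTG2 are shown because they are the members that fell in SMG, and EGR2 and NR4A3 because they hold some of the same motifs; NR4A3 was not called, and EGR2 had too few counts to be tested. Capitals mark matches to 3 motifs on either strand: the CArG box, which SRF binds; the short CRE motif TGACG or its reverse complement, which CREB binds; and the EGR site GCGGGGGCG or GCGTGGGCG, which EGR proteins bind.
EGR1, chr5:138465229-138465478, plus strand: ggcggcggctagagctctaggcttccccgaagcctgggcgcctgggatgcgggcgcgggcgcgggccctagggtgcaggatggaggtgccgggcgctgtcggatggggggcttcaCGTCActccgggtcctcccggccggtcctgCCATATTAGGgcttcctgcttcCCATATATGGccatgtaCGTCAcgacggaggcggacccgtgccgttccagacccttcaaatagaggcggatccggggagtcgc
EGR2, start 3 of 3, chr10:62816367-62816616, minus strand: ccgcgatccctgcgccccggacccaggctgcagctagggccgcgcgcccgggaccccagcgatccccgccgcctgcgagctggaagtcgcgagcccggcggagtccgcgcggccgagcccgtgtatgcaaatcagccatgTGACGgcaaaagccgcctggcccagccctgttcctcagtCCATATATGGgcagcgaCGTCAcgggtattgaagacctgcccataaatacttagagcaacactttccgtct
NR4A3, chr9:99821635-99821884, plus strand: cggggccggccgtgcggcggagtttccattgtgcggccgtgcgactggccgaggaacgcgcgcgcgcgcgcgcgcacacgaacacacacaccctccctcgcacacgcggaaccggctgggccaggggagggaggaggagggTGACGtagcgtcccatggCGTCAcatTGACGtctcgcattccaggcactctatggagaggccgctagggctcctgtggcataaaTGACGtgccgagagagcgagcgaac
BTG2, chr1:203305269-203305518, plus strand: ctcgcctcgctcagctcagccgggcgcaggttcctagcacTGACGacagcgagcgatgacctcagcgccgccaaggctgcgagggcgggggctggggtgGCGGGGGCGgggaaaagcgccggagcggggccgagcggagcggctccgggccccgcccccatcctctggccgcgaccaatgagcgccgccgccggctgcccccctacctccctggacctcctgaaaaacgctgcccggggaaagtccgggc

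EGR1 held 2 CArG boxes, starting 105 and 83 bases before the start, between 2 short CRE motifs at 135 and 66 bases. EGR2 start 3 held 1 CArG box at 71 bases, also between 2 short CRE motifs, at 110 and 54 bases. No other window read here had a CArG box, and 1.16% of the 35116 RefSeq windows of this length did. NR4A3 had 4 short CRE motifs, at 109, 91, 83 and 25 bases, EGR4 had 2 and IER2 had 1. Of all windows, 21.2% held a short CRE motif, and 1.65% held the full CRE TGACGTCA, which was in none of the members' windows read here. BTG2 had 1 short CRE motif, at 210 bases, and an EGR site at 151 bases, a motif found in 5.37% of all windows. The 2 windows of NR4A1 matched none of these motifs. A match is a run of letters and was not tested as a binding site.

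**Figure D1:**
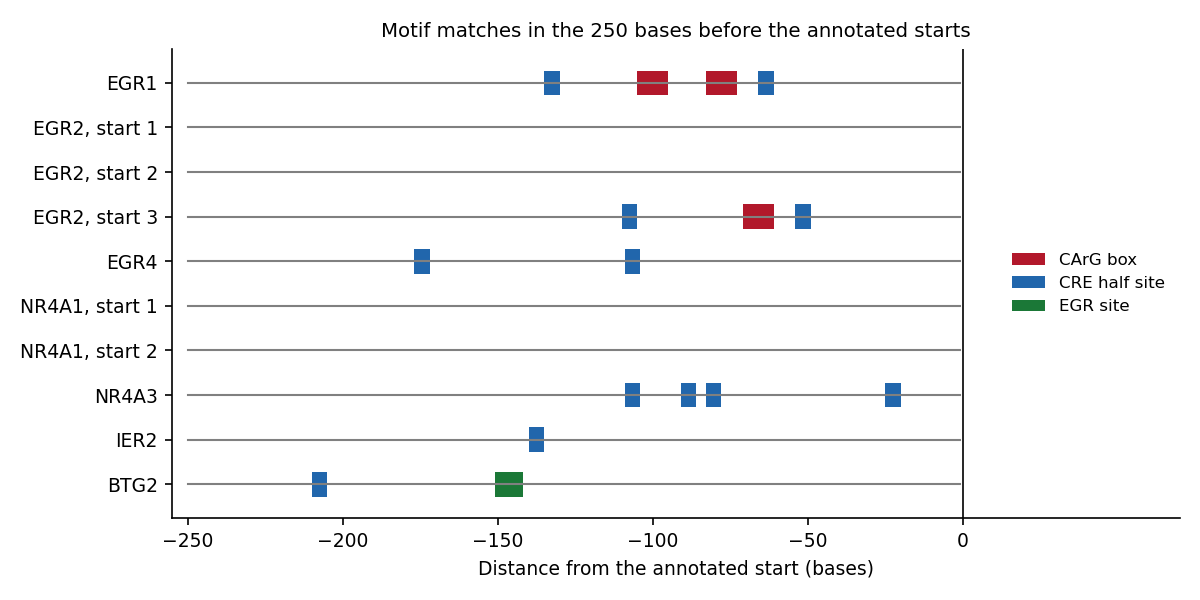
Motif matches (coloured bars, drawn to scale) in the 250 bases before each annotated start, with distance from the start in bases on the x axis and 1 row per start; the legend calls the short CRE motif by its usual name. EGR1 and start 3 of EGR2 are the rows with CArG boxes, NR4A3 has 4 short CRE motifs, and BTG2 has the EGR site.

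Total counts were 20986483 to 22685870 in the SMG libraries and 16329907 to 21386253 in the NG libraries. The labels do not say whether the libraries of a group came from separate cultures. The p-values therefore set the group difference only against the scatter of these libraries, which can be technical. Levels are CPM, TMM-scaled counts over the library total, given as mean ± SD (n = 3 per group). Fold changes are log2, SMG minus NG, ± SE, with 95% intervals, from edgeR's quasi-likelihood test. Calls are made at a Benjamini-Hochberg adjusted p of 0.05 over the 17803 genes that passed its filter on low counts. Of the 10 members, 7 passed that filter; EGR2, EGR3 and EGR4 did not. The defining markers of motor neurons were present: ISL1 was at 120 ± 3.66 CPM in SMG and 103 ± 3.95 CPM in NG, MNX1 at 61.7 and 52.3 CPM, and CHAT, which makes acetylcholine, at 32.4 and 30.6 CPM. Neural progenitor markers were present too, with SOX2 at 255 and 270 CPM and MKI67 at 298 and 310 CPM. Which cells the members' counts came from was not measured.

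EGR1 fell to 3.17 ± 0.0621 CPM in SMG, against 11.4 ± 0.90 CPM in NG, and BTG2 to 47.3 ± 2.69 CPM, against 56.4 ± 1.04 CPM. These were the only calls among the 7 tested members, and no member rose. The other 5 tested members, NR4A1, NR4A2, NR4A3, ARC and IER2, had log2 fold changes from -0.25 to 0.13. Of all tested genes 35.8% were called, 17.3% higher and 18.5% lower, so 2 calls among 7 members (28.6%) is near the share of the whole table. Among genes with a mean of 20 to 100 CPM, the range of BTG2, 49.3% were called. The groups did not overlap in 3 tested members, with EGR1 and BTG2 lower and NR4A1 higher in SMG. Of all tested genes 46.3% did not overlap, 23.6% with SMG lower and 22.6% with SMG higher. A fall of at least 2-fold was less common: it was found in EGR1 and in 0.494% of all tested genes.

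**Figure D2:**
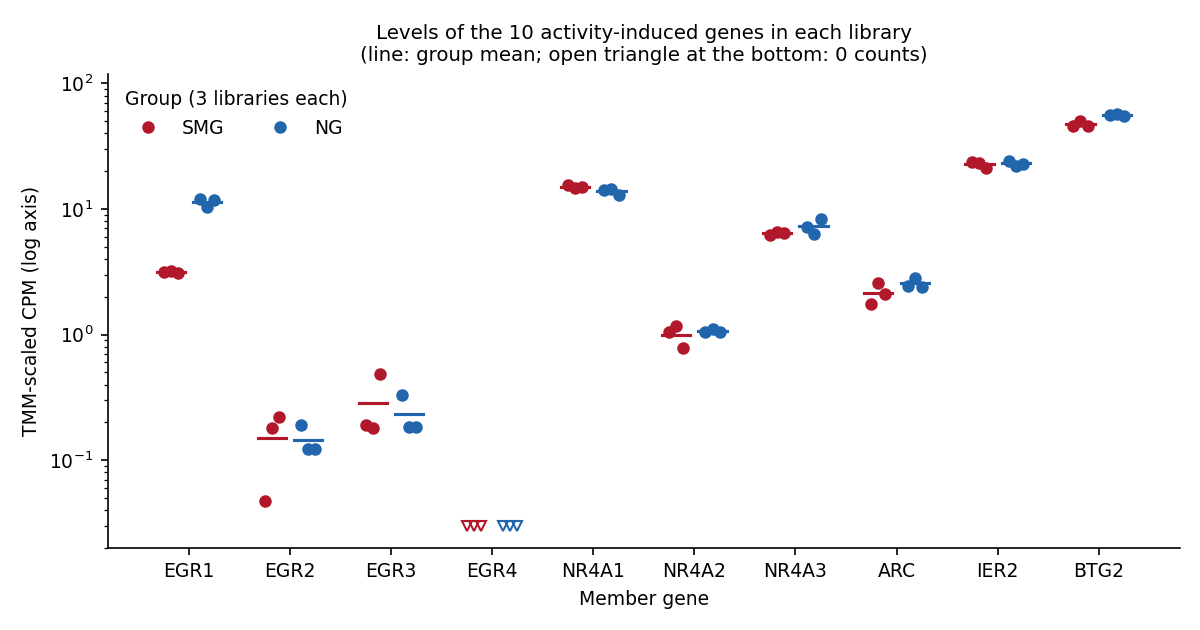
TMM-scaled CPM on a log axis of the 10 members, with SMG libraries left of NG libraries, 1 point per library, a line at each group mean and open triangles for 0 counts. EGR1 lies at 3.11 to 3.23 CPM in SMG and at 10.3 to 12.0 CPM in NG, and the other members lie at similar heights in both groups.

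EGR1, the best known member of its family and a zinc finger activator that binds GC-rich sites, had 3.16, 3.23 and 3.11 CPM in the SMG libraries, against 12.0, 10.3 and 11.8 CPM in the NG libraries. The raw counts behind these values were 67, 72 and 71 in SMG and 254, 168 and 194 in NG. Every SMG library was below every NG library, and the libraries within a group lay close together. The scatter of the SMG libraries was smaller than counting error alone would usually give at such counts, so their SD understates how uncertain the level is. The log2 fold change was -1.85 ± 0.11 (interval -2.07 to -1.62; edgeR adjusted p = 1.71e-13), a level 3.08 to 4.21 times lower in SMG. Ranked from the lowest fold change, EGR1 was number 9 of the 13837 tested genes with a mean of at least 2 CPM.

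The 3 other EGR genes were close to the limit of these libraries. EGR2, which drives myelination in Schwann cells and hindbrain patterning, had 1, 4 and 5 counts in SMG and 4, 2 and 2 in NG. EGR3, a relative induced by the same stimuli, had 4, 4 and 11 counts in SMG and 7, 3 and 3 in NG. Both genes overlapped between groups. The summed counts of EGR2 were 10 in SMG (exact Poisson interval 4.8 to 18.4) and 8 in NG (3.45 to 15.8). For EGR3 they were 19 in SMG (11.4 to 29.7) and 13 in NG (6.92 to 22.2). These intervals cover counting error only. EGR4, another inducible relative, had 0 counts in all 6 libraries, which allows a level of up to 0.0455 CPM over the SMG group and 0.0552 CPM over the NG group. With no filter on low counts, the log2 fold change was 0.03 for EGR2 (interval -1.40 to 1.46, edgeR adjusted p = 0.982) and 0.25 for EGR3 (-0.82 to 1.32, adjusted p = 0.814). A change of EGR2 or EGR3 as large as that of EGR1, down to -1.85, lies outside both intervals.

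EGR1 supplied most of the counts of its family. Its share was 93.1%, 90.0% and 81.6% in the SMG libraries and 95.8%, 97.1% and 97.5% in the NG libraries. The 4 EGR genes together were at 3.6 ± 0.206 CPM in SMG and 11.8 ± 0.974 CPM in NG.

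The NR4A receptors are transcription factors that act without a known natural ligand and are induced by calcium and cAMP. NR4A1 had 15.6, 14.8 and 14.9 CPM in SMG, against 14.1, 14.4 and 13.0 CPM in NG. All SMG libraries were above all NG libraries, by a small margin, and the gene was not called (0.13 ± 0.08, interval -0.03 to 0.29, edgeR adjusted p = 0.224). NR4A3, the member whose promoter window held 4 short CRE motifs, had 6.23, 6.60 and 6.39 CPM in SMG and 7.17, 6.34 and 8.29 CPM in NG. Its groups overlapped, and the NG libraries were the more spread (-0.18 ± 0.11, interval -0.40 to 0.04, adjusted p = 0.211). Without NG replicate 3, the highest, NR4A3 was at -0.0821. NR4A2, which is needed for midbrain dopamine neurons, was thinly counted, with 22, 26 and 18 counts in SMG and 22, 18 and 17 in NG (-0.09 ± 0.26, interval -0.61 to 0.44, adjusted p = 0.825). The 3 receptors together were at 22.5 ± 0.392 CPM in SMG and 22.2 ± 0.269 CPM in NG, and the libraries of the groups overlapped.

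ARC, a protein that moves AMPA receptors out of the synapse, had 1.75, 2.56 and 2.10 CPM in SMG, against 2.45, 2.83 and 2.38 CPM in NG. The highest SMG library lay within the NG range, and the gene was not called (-0.25 ± 0.18, interval -0.61 to 0.12, edgeR adjusted p = 0.295). ARC was at -0.13 without SMG replicate 1 and at -0.40 without SMG replicate 2, and not called in either. IER2, a nuclear protein induced by growth factors, had 23.5, 23.4 and 21.4 CPM in SMG and 24.2, 22.0 and 23.0 CPM in NG. Its groups overlapped and its interval was the narrowest of the uncalled members, -0.16 to 0.11 (-0.03 ± 0.06, adjusted p = 0.795), so a fall of more than 1.12-fold lies outside it. BTG2, an antiproliferative protein that recruits the CCR4-NOT deadenylase to mRNA and is also a target of p53, had 46.0, 50.4 and 45.5 CPM in SMG, against 56.0, 57.5 and 55.5 CPM in NG. The groups did not overlap, and the fall was small (-0.25 ± 0.05, interval -0.35 to -0.15, adjusted p = 0.000207). IER2, NR4A1 and EGR3 overlap an annotated gene on the other strand, and whether counting used strand is not stated in the labels. Those 3 partner genes had at most 1 count in any library, which cannot show whether reads in the overlap were left uncounted.

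Once each library's trend over exon length and GC content had been taken out, EGR1 was at -1.90 and BTG2 at -0.24, both still called. The values of 3 uncalled members moved by more than 1.5 times in that fit without reaching a call: ARC was at -0.42 (edgeR adjusted p = 0.0675), IER2 at -0.15 (adjusted p = 0.0781) and NR4A1 at -0.0145 (adjusted p = 0.906).

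**Figure D3:**
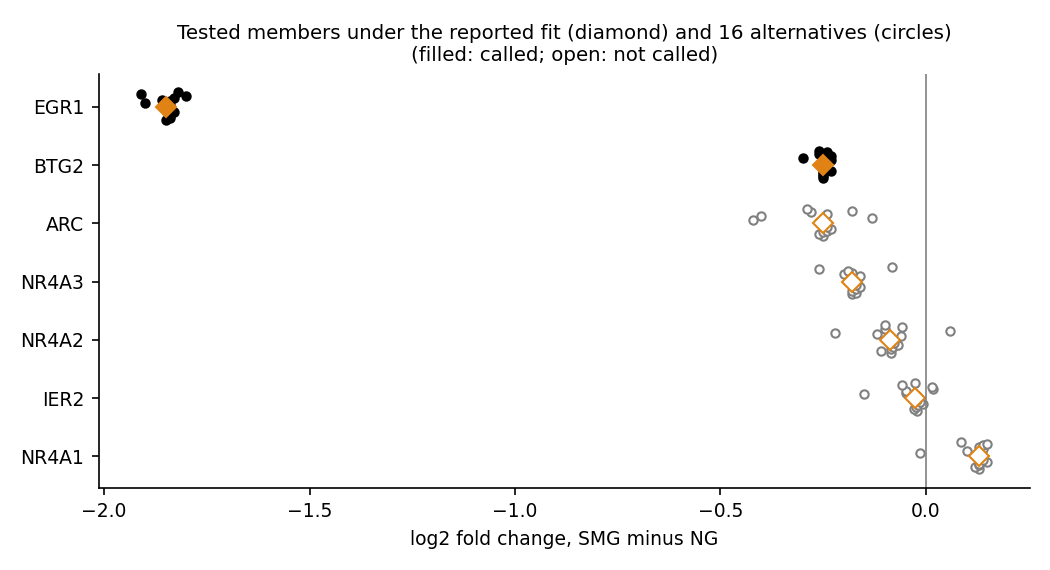
The log2 fold change (SMG minus NG) of the 7 tested members in the reported fit (diamonds) and in 16 alternatives (circles), filled where called. EGR1 stays between -1.91 and -1.80 and BTG2 between -0.30 and -0.23, called in all 16, and the other 5 members are open throughout.

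Divided by the length of merged exons, levels can be compared roughly between genes. The length of the mRNA in use was not measured. In SMG the order of the level in CPM per kilobase was BTG2 (17.2), IER2 (7.41), NR4A1 (2.07), NR4A3 (1.01), EGR1 (1.01), ARC (0.714), NR4A2 (0.252), EGR3 (0.0584), EGR2 (0.0403) and EGR4. In NG it was BTG2 (20.4), IER2 (7.52), EGR1 (3.63), NR4A1 (1.90), NR4A3 (1.15), ARC (0.854), NR4A2 (0.267), EGR3 (0.0479), EGR2 (0.0392) and EGR4. On this scale EGR1 was above both NR4A1 and NR4A3 in NG, and below NR4A1 and level with NR4A3 in SMG. Its place above NR4A1 in NG rests on the merged exon lengths, 3138 bases for EGR1 and 7295 for NR4A1. In CPM, not divided by length, EGR1 was below NR4A1 in NG, at 11.4 against 13.8. The ranges over 3 libraries overlapped for NR4A3 and EGR1 in SMG and for EGR3 and EGR2 in both groups; other neighbours were apart. The ratio of EGR1 to NR4A1 counts within a library, which does not depend on scaling, was 0.202, 0.218 and 0.208 in SMG and 0.847, 0.718 and 0.911 in NG. The ratio of EGR1 to IER2 was 0.135 to 0.145 in SMG and 0.469 to 0.513 in NG.

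The AP-1 genes, which are induced beside the EGR genes, moved in both directions. Of 7 tested, 3 fell and 1 rose, with a median of -0.25, where the median of all tested genes was 0.00 and 35.8% of them were called. FOS fell to 1.60, 1.66 and 1.75 CPM in SMG, against 14.0, 13.5 and 12.6 CPM in NG (-3.0 ± 0.12). The ratio of EGR1 to FOS counts was therefore higher in SMG, 1.77 to 1.97, than in NG, 0.764 to 0.937. FOSB, another low gene, fell, with 0.493 ± 0.222 CPM in SMG and 1.06 ± 0.071 CPM in NG (-1.08 ± 0.32); without SMG replicate 1 it was at -0.76 and not called (edgeR adjusted p = 0.0699). ATF3, a stress-induced relative, fell by less (-0.27 ± 0.09); without SMG replicate 2, SMG replicate 3 or NG replicate 1 its adjusted p was 0.0717, 0.0884 and 0.119, and with the length and GC trend removed it was 0.0641. JUN, the partner of FOS in AP-1, rose (0.32 ± 0.05), and JUNB, JUND and FOSL2 were not called, at 0.06, 0.01 and -0.25. JUND was at -0.17 with the length and GC trend removed (adjusted p = 0.00486).

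All 6 tested relatives of BTG2 and IER2 in the BTG, TOB and IER families were called, 5 lower and 1 higher in SMG, with a median of -0.37. Of all tested genes 35.8% were called, and of those at 20 to 100 CPM 49.3%; the share was not tested against that of the members. BTG1, the closest relative of BTG2, had 168, 161 and 163 CPM in SMG, against 225, 218 and 214 CPM in NG (-0.42 ± 0.03). BTG3 had 31.6, 34.4 and 31.9 CPM in SMG, against 46.3, 45.5 and 47.9 CPM in NG (-0.51 ± 0.05). Their falls were not tested against that of BTG2. BTG1 overlaps a non-coding gene on its own strand, and BTG1, BTG3, TOB1 and IER5L overlap annotated genes on the other strand. How reads in these overlaps were counted is not stated in the labels. They may have been left uncounted, or some counted here may belong to those genes. TOB1, which also binds the deadenylase, fell (-0.32 ± 0.07), and its near relative TOB2 rose to 88.1 ± 2.87 CPM in SMG, against 73.0 ± 0.88 CPM in NG (0.27 ± 0.04). IER5 (-0.31 ± 0.08) and IER5L (-0.50 ± 0.10) fell, where IER2 was not called. Of 12 tested genes for CCR4-NOT subunits and PABPC1, the cytoplasmic poly(A)-binding protein, 5 fell and 1 rose, all of them subunits: CNOT7, the deadenylase that BTG2 binds and a gene that overlaps VPS37A on the other strand, was at -0.11 ± 0.04, CNOT2 at -0.20 ± 0.04 and CNOT3 at 0.29 ± 0.05. CNOT7 was not called without SMG replicate 1 (-0.10, edgeR adjusted p = 0.0621) or SMG replicate 3 (-0.11, adjusted p = 0.0508), or with the length and GC trend removed (-0.0545, adjusted p = 0.175). The count of genes of that list that fell was 3 without SMG replicate 1 or 3 and 2 without NG replicate 1, and 2 rose without NG replicate 3.

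**Figure D4:**
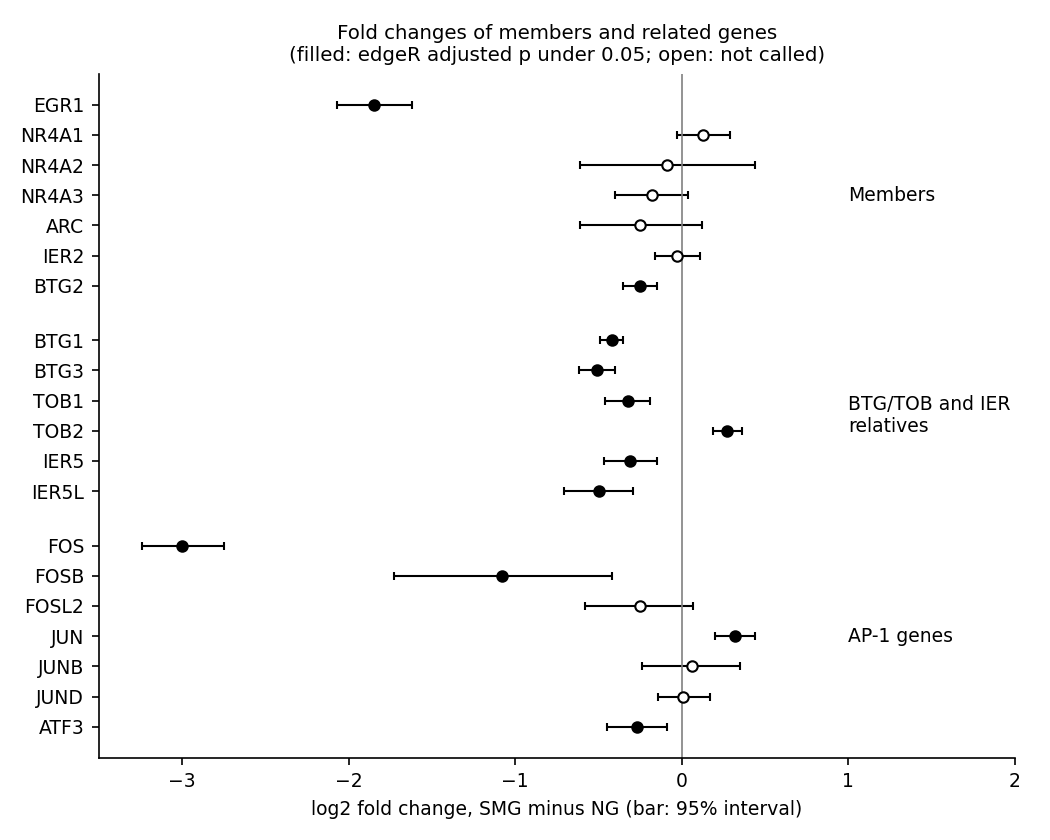
Log2 fold changes (SMG minus NG, x axis) with 95% intervals of the tested members, their BTG, TOB and IER relatives and the AP-1 genes, filled where called. EGR1 (-1.85) and FOS (-3.0) have intervals apart from those of the other genes of their groups, FOSB is at -1.08 with a wide interval, and the rest lie between -0.51 and 0.32.

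Other primary response genes moved in both directions: of 31 tested, 11 fell and 5 rose, with a median of -0.08. The called share was 51.6%, against 35.8% of all tested genes, 49.3% of those at 20 to 100 CPM and 60.2% at 100 CPM or more. KLF10, a TGF-beta-induced repressor, had 51.1, 50.3 and 48.6 CPM in SMG, against 83.3, 78.0 and 86.2 CPM in NG, and fell (-0.72 ± 0.05). The mRNA decay factor ZFP36L2 fell (-0.42 ± 0.06), as did the kinase PLK2 (-0.32 ± 0.06). Without SMG replicate 1, 7 genes of this list fell, and without SMG replicate 3, NG replicate 1 or NG replicate 3, 3 rose. The list of neuronal late response genes, not all of which need a first wave of factors, had 8 lower and 3 higher of 18. Its median was -0.12 and its called share 61.1%. NRN1, a secreted promoter of neurite growth, fell to 10.2 ± 0.661 CPM in SMG, against 17.2 ± 0.656 CPM in NG (-0.76 ± 0.08). SLC2A3, the neuronal glucose transporter, fell (-0.91 ± 0.03), as did the prohormone convertase PCSK1 (-0.47 ± 0.08), the granule protein SCG2 (-0.27 ± 0.06) and the G protein regulator RGS2 (-0.43 ± 0.07). NPTX1, a synaptic pentraxin, rose (0.36 ± 0.08). The classical activity targets BDNF (-0.13 ± 0.25, edgeR adjusted p = 0.739) and HOMER1 (-0.05 ± 0.05, adjusted p = 0.49) were not called. NPAS4, the factor most specific to calcium entry, had 0, 0.225 and 0.219 CPM in SMG and 0.236, 0.0616 and 0.244 CPM in NG and did not pass the filter.

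Genes for the factors that switch the members on moved in both directions, where 17.3% of all tested genes rose and 18.5% fell. Of 7 tested genes for SRF and its cofactors, 2 rose and 1 fell. SRF was at 61.5 ± 1.18 CPM in SMG and 52.7 ± 2.97 CPM in NG (0.23 ± 0.05), a call that ended with the length and GC trend removed (0.0847, edgeR adjusted p = 0.230). Its actin-controlled cofactor MRTFA rose (0.29 ± 0.05), and ELK4, an ERK-controlled partner, fell (-0.27 ± 0.06). Among CREB, CRTC and MEF2 genes and their coactivators 6 of 11 rose and 1 fell, including the acetyltransferases CREBBP (0.45 ± 0.04) and EP300 (0.27 ± 0.03) and the CREB coactivator CRTC1 (0.40 ± 0.04). The 1 fall in that list was not called without SMG replicate 1, SMG replicate 2 or NG replicate 1. Of 23 kinase, phosphatase and calmodulin genes that carry calcium and ERK signals, 9 rose and 3 fell. PRKACA, the catalytic subunit of protein kinase A, rose (0.37 ± 0.04), as did RPS6KA2 (0.29 ± 0.04) and MAP2K2 (0.23 ± 0.04) of the ERK pathway. Without SMG replicate 2, NG replicate 1 or NG replicate 2, 1 gene of that list fell.

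ERK feedback inhibitors, which are themselves ERK targets, had 5 lower and 4 higher of 16, with a median of -0.01. The called share was 56.2%, against 35.8% of all tested genes, 49.3% of those at 20 to 100 CPM and 60.2% at 100 CPM or more. SPRY1 (-0.63 ± 0.12), SPRY2 (-0.39 ± 0.06) and DUSP6 (-0.29 ± 0.05) fell, DUSP8 (0.32 ± 0.04) and DUSP4 (0.20 ± 0.03) rose, and the immediate early phosphatase DUSP1 was at -0.09 ± 0.05 (edgeR adjusted p = 0.188). DUSP1 was called without NG replicate 1 (-0.16, adjusted p = 0.0383). EGR and NR4A partners had 3 higher and 2 lower of 9 (55.6% called). The EGR corepressor NAB1 fell (-0.19 ± 0.05), and NAB2, a corepressor that EGR1 induces, was at -0.05 ± 0.05 (adjusted p = 0.533), or at -0.17 with the length and GC trend removed (adjusted p = 0.0071). RXRA, the dimer partner of NR4A1, rose (0.33 ± 0.04). Without any one of SMG replicates 1, 2 and 3 or NG replicates 1 and 2, 1 gene of that list fell. Of 12 genes for proteins that bind ARC, 8 rose, among them the kinase subunit CAMK2B (0.34 ± 0.06), and 1 fell (75% called). With the length and GC trend removed, however, 2 of these genes rose and 0 fell. The 1 fall there was also not called without SMG replicate 1, SMG replicate 3 or NG replicate 1.

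Targets of p53, the factor that induces BTG2, had 8 lower and 3 higher of 18, with a median of -0.12. The called share was 61.1%, against 35.8% of all tested genes, 49.3% of those at 20 to 100 CPM and 60.2% at 100 CPM or more. The cell cycle inhibitor CDKN1A fell to 33.2 ± 1.31 CPM in SMG, against 48.2 ± 1.36 CPM in NG (-0.54 ± 0.05), and CCNG1 fell equally (-0.54 ± 0.04). Without SMG replicate 3 or NG replicate 1, 1 gene of that list rose.

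**Figure D5:**
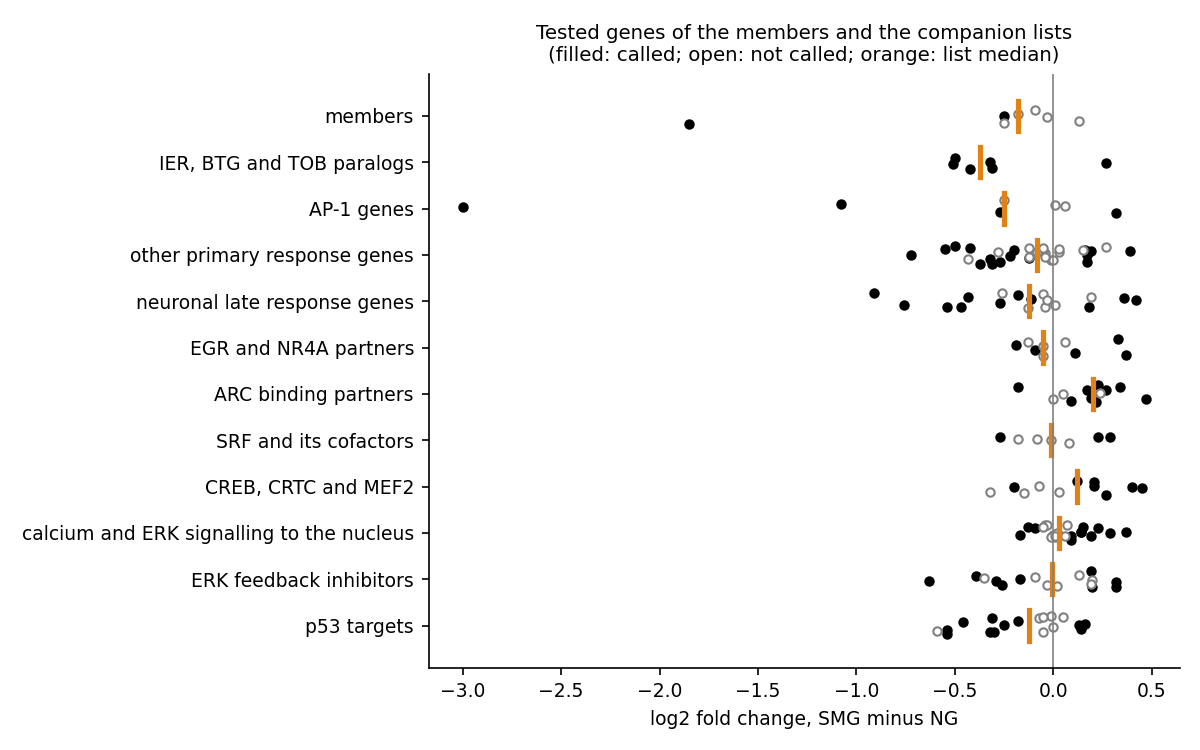
Log2 fold change (SMG minus NG, x axis) of each tested gene of the members and of 11 companion lists, 1 row per list, filled where called and with the list median in orange. EGR1 at -1.85 and FOS at -3.0 lie far to the left of the other genes of their rows, and the list medians lie between -0.37 and 0.21.

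The genes whose pattern was most like that of EGR1 over the 6 libraries were HK2, P4HA1 and STC2. Likeness was the root mean square difference of mean-centred log2 CPM, searched over 13523 named genes of at least 2 CPM, and it mainly reflects a similar difference between the groups. HK2, a hexokinase of glycolysis, was at 0.071 from EGR1 and fell by 1.83 ± 0.04. P4HA1, a collagen prolyl hydroxylase subunit, was at 0.0916 and fell by 1.66 ± 0.05, and STC2, a secreted glycoprotein, was at 0.0932 and fell by 1.70 ± 0.05. For BTG2 the nearest were IFNGR2 (0.0087), an interferon gamma receptor chain, GOLPH3L (0.0116) and SNCG (0.020), a synuclein, at log2 fold changes of -0.25, -0.24 and -0.25.

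Other measures moved with the groups. In bulk RNA, fewer cells of a type and less RNA per cell cannot be told apart. For the counts below, 17.3% of all tested genes rose and 18.5% fell. Of 11 neural progenitor markers tested, 4 fell and 1 rose, and their summed level was 4277 to 4400 CPM in SMG and 4425 to 4688 CPM in NG; without SMG replicate 2 or 3 none rose. Of 3 tested astrocyte markers 2 fell, with sums of 271 to 285 CPM in SMG and 301 to 310 CPM in NG, led by the gap junction gene GJA1 (-0.56 ± 0.07), while the defining marker GFAP was at 0.152 CPM in SMG and 0.197 CPM in NG. Without SMG replicate 3 or NG replicate 1, 1 astrocyte marker fell. Endothelial and pericyte markers summed to 4.04 to 4.86 CPM in SMG and 5.47 to 6.22 CPM in NG, with 2 of 5 lower, or 1 without any one of SMG replicates 1, 2 and 3 or NG replicate 2, and 0 without NG replicate 1. Motor neuron markers had 6 of 10 higher, with sums of 905 to 944 CPM in SMG and 728 to 761 CPM in NG. Neural crest and sensory markers summed to 121 to 126 CPM in SMG and 88.9 to 94.2 CPM in NG. Most of that sum was RET, at 117 CPM in SMG and 85.4 CPM in NG, the only call of 4 tested. SOX10 was at 0.419 and 0.381 CPM, POU4F1 at 2.24 and 2.23 CPM, and TFAP2A at 0.288 and 0.631 CPM, in SMG and NG. Oligodendrocyte markers summed to 337 to 348 CPM in SMG and 358 to 372 CPM in NG, and pluripotent cell markers to 74.3 to 81.3 CPM in SMG and 83.7 to 89.7 CPM in NG. Mesenchymal and muscle markers were low in both groups, at 6.28 to 6.92 CPM in SMG and 7.31 to 7.38 CPM in NG. The sums of pan-neuronal, interneuron and microglia and blood markers overlapped between groups, and AIF1, HBA1 and HBB were at 0 in every library. In the heat shock and dissociation stress list, 5 of 13 fell and 1 rose (2 without NG replicate 3), with sums of 5267 to 5409 CPM in SMG and 5670 to 6003 CPM in NG. Most of that sum was HSP90AA1 (1471 CPM in SMG and 1623 CPM in NG), HSP90AB1 (1342 and 1595 CPM) and HSPA8 (1027 and 1070 CPM). DNAJB1 (0.01) and BAG3 (0.08) were not called, HSPH1 rose (0.16) and ATF3 fell (-0.27). Whether handling differed between the groups was not measured. The part of all these measures in the falls of EGR1 and BTG2 was not tested.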

How the data were processed

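Bulk RNA libraries from 1.3 µg of total RNA were made with an mRNA kit, per the labels' protocols. The authors deposited raw read counts for each gene and library. Per the submitters' processing notes, HISAT2, SAMtools, featureCounts, DESeq2 and hg19 were involved. Their versions, the annotation and any use of strand are not stated in the labels. Counts were used as deposited. Of 57820 IDs, 52338 matched a symbol in a table of gene names or GENCODE 29, which also gave exon lengths, GC content and overlaps. Promoter windows came from RefSeq. EdgeR 4.0.16 (R 4.3.3) was used with filterByExpr, TMM scaling and glmQLFit with robust estimation, SMG against NG, with Benjamini-Hochberg adjustment over 17803 genes. Genes of 10 CPM or more had a median SE of 0.0524 on the log2 scale. The code was tested on simulated data. Alternatives used DESeq2 1.42.0, limma-voom 3.58.1, other scalings and filters, no robust estimation, the replicate number as a block, removal of length and GC trends (splines, 4 degrees of freedom; 96.6% of tested genes had values), and each library left out.

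The members and companion lists were chosen with earlier results of these data known. Some genes are counted in more than 1 list, among them CDKN1A, IER5, IER5L, ATF3, CREM and PLK3. Companion genes named were up to 4 called genes per list with the largest change at a mean of 2 CPM or more, and up to 2 uncalled ones with the highest mean; only a part is printed. FOSB, FOSL2, IER5, PLK2, SCG2, RGS2, NPTX1, BDNF, HOMER1, NPAS4, TOB2, CNOT7, NAB2, DUSP1, DUSP4, DUSP6, ISL1, CHAT and GFAP were added after their values were seen. DUSP14 and PECAM1 matched no gene. Interneuron (1 higher, 1 lower of 8 tested), oligodendrocyte (0 and 1 of 5), neural crest (1 and 0 of 4), pan-neuronal (3 and 2 of 10), microglia and blood (0 of 1), mesenchymal (0 of 4) and pluripotent (0 and 1 of 2) markers were also checked.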

Additional observations from a re-analysis of the deposited data

How the results depend on the processing

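Under all 16 alternatives 2 members were lower and 0 were higher in SMG, and they were EGR1 and BTG2 each time. Over all genes, calls ranged from 4648 with DESeq2 to 6385 with DESeq2's size factors, and from 4961 to 6092 with 1 library left out. Some uncalled members changed sign. NR4A1 was at -0.0145 with the length and GC trend removed. With 1 library left out, NR4A2 ranged from -0.22 to 0.0599 (positive without SMG replicate 3) and IER2 from -0.0569 to 0.018 (positive without SMG replicate 3, and 0.0147 without NG replicate 1). JUNB was at -0.0791, JUND at -0.17 and CHAT at -0.0053 with the trend removed. With 1 library left out, JUNB ranged from -0.0936 to 0.22 (negative without SMG replicate 2 or NG replicate 3), JUND from -0.0497 to 0.0849 (negative without SMG replicate 3 or NG replicate 3) and BDNF from -0.36 to 0.0416 (positive without SMG replicate 2). NR4A3 ranged from -0.26 to -0.0821 and ARC from -0.40 to -0.13, with no change of call. The cause was not tested. With the trend removed, edgeR no longer called GOLPH3L (-0.13, adjusted p = 0.111), ATF3 (-0.21, 0.0641) or MNX1 (0.0626, 0.280), ARC partners had 2 higher where the reported fit had 8, and SRF genes had 1 where it had 2. With DESeq2, ATF3 was not called (DESeq2 adjusted p = 0.0643), AP-1 genes had 1 lower (3 reported), and other primary response genes 7 lower and 2 higher (11 and 5 reported). Library size scaling moved the share of higher calls to 55.1%, against 48.3%.

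Libraries with equal replicate numbers did not deviate together from their group means (correlations of deviations -0.004, 0.018 and -0.028). Whether the libraries were paired by design is not stated in the labels, and these values cannot show it. With the replicate block, EGR1 was at -1.84, BTG2 at -0.25, and 6333 genes were called. Depth limits EGR2, EGR3 and EGR4, which had at most 11 counts in a library, and NR4A2, whose interval spans -0.61 to 0.44.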
